A study of Homo sapiens with 2 samples.

Results

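The amino acid transporter genes described here are the protein-coding genes of 7 solute carrier (SLC) families, SLC1A, SLC3A, SLC6A, SLC7A, SLC36A, SLC38A and SLC43A. The rule reads the gene symbol, a family name followed by a number, and it gave 59 genes of 58735 in the table. RNA was sequenced from control cells and from cells kept for 24 h with both TDCPP, a chlorinated organophosphate flame retardant, and TiO2 nanoparticles, 1 library each. SH-SY5Y, the neuroblastoma line named in the labels, was grown in DMEM with fetal bovine serum. Both groups share this medium, which is rich in amino acids. No dose, no library of either agent alone and no replicate is described in the labels, so the contrast is the mixture against the control, with no replicate check of any difference. In RNA from whole cultures, fewer cells that express a gene and less of its RNA per cell cannot be told apart.

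Amino acids cross the plasma membrane on carriers that differ in substrate and driving force. Sodium-coupled carriers of the SLC1, SLC6 and SLC38 families pull substrates in against their gradient. Exchangers of the SLC7 family then trade one amino acid for another, so that glutamine can be exchanged for leucine, and glutamate for cystine. Several SLC7 carriers reach the cell surface only when bound to a single-pass partner, the heavy chain encoded by SLC3A2 or SLC3A1. When amino acids run short or the endoplasmic reticulum is stressed, the transcription factor ATF4 is made, and many genes of amino acid uptake and synthesis are among its known targets. In neurons and glia, members of the SLC1 and SLC6 families clear glutamate, glycine, GABA and the monoamines from the synapse.

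The libraries held 16471438 reads on annotated genes in the control and 15315572 in the exposed library. Values are the authors' deposited FPKM, that is, fragments per kilobase of gene, scaled for depth. Of the 59 transporter genes, 27 had a mean of at least 1 FPKM over both libraries and are called measured. All 27 reached 1 FPKM in each library, so none entered through the exposed library alone. The difference is given as the log2 ratio, log2((exposed FPKM + 1)/(control FPKM + 1)), a scale that shrinks differences between low values. A ratio followed by an interval is the ratio of FPKM without the added 1, with an exact conditional binomial 95% interval of the reads. Intervals cover counting error only and compare these 2 libraries, not the conditions.

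The exposed library held more messenger RNA for a set of plasma membrane carriers of neutral amino acids, cystine, glycine and arginine. Of the 27 measured transporter genes, 9 were at least 1.5-fold higher in log2 ratio (33.3%) and none was at least 1.5-fold lower. Over all 11409 measured protein-coding genes, 2.53% passed 1.5-fold upwards and 2.16% downwards. At least 2-fold higher were 5 of the 27, SLC7A11, SLC6A9, SLC3A2, SLC43A1 and SLC1A4, against 0.657% of all measured genes, and none was 2-fold lower, against 0.131%. In descending order of log2 ratio these 5 genes ranked 19, 20, 25, 29 and 50 among the 11409. The other 4 were SLC7A1, SLC1A5, SLC7A5 and SLC38A1. None of the 32 unmeasured genes reached 1.5-fold on this scale, which most of them could not do at such low FPKM. The count over all 59 genes was therefore also 9 and adds nothing about the unmeasured ones. Without the added 1, SLC1A7 had a ratio of 0.169 (0.0319 to 0.579) and SLC6A17 one of 2.25 (1.16 to 4.57).

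The median log2 ratio of the 27 measured genes was 0.13, and that of all measured genes was -0.05. The difference was spread unevenly, since 10 of the 27 lay at or below the median of all genes. The counting interval of the ratio lay above 1 for 13 transporter genes, below 1 for 8 and held 1 for 6. Among all measured genes it lay above 1 for 21.5% and below 1 for 36%. These counts keep the authors' library totals, 0.971 and 1.03 times the summed reads, and were not repeated under other scalings. An interval that ends near 1, such as that of SLC7A2 (0.883 to 0.994), could cross it under another scaling. Counted over the whole SLC superfamily outside these 7 families, 170 genes were measured, with 1 past 1.5-fold upwards and 1 downwards. No test of the difference between these groups of genes was made, as 1 library per group allows none.

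**Figure D1:**
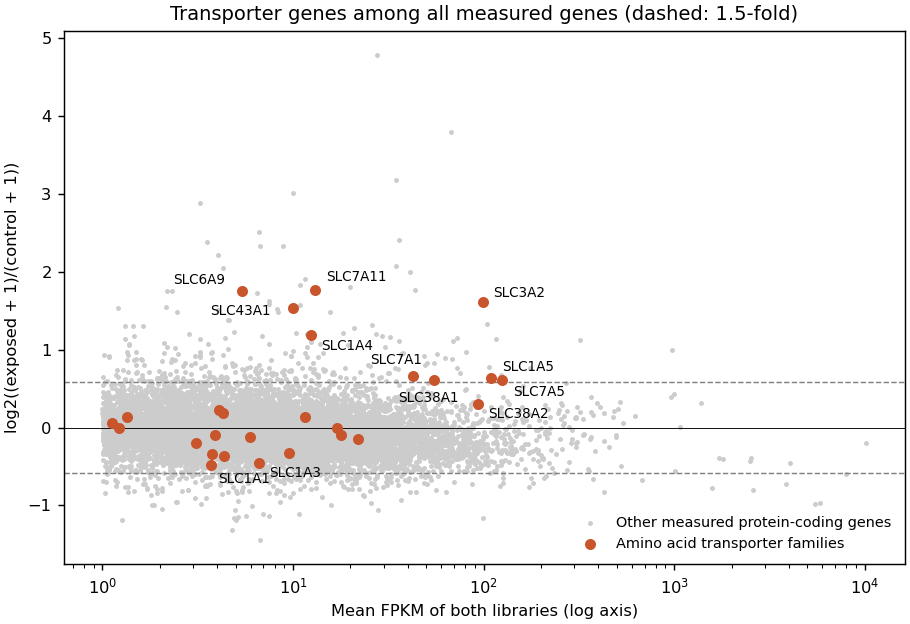
Log2 ratio (vertical axis) against the mean FPKM of both libraries (horizontal, log axis) for all 11409 measured protein-coding genes, with the 27 measured transporter genes as large points and dashed lines at 1.5-fold. The 9 transporter genes above the upper line range from SLC6A9, with a mean of 5.38 FPKM, to SLC7A5, with a mean of 125 FPKM, and none lies below the lower line.

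The sequences around annotated starts were searched because members of different families were higher together, and because the C/EBP-ATF response element is the known binding site of ATF4 with its C/EBP partners. RefSeq windows on GRCh38.p14, from 250 bases before to 50 bases after each annotated start, were matched by symbol for 23 of the 27 measured genes, all but SLC6A6, SLC6A15, SLC7A2 and SLC7A11. The core searched was TGATGNAA, on both strands. At least 1 window held it in 6 of the 23 genes (26.1%), namely SLC3A2, SLC1A4, SLC7A1, SLC1A5, SLC38A1 and SLC1A3. Among all measured genes with a window it was 233 of 9159 (2.54%), and among all genes with a RefSeq window 1217 of 27305 (4.46%). Of all 35116 single windows, 3.62% held the core. Of the 8 transporter genes that were at least 1.5-fold higher and had a window, 5 held the core, and of the other 15 measured transporter genes 1 did (SLC1A3). Of the 200 genes with a window among all measured genes at least 1.5-fold higher, 19 held it (9.50%). A match is a run of letters and not a binding site, and genes with several annotated starts had more windows to search.

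Each stretch is shown 5′ to 3′ on the strand of its gene, with the core in capitals, so that the letters around the matches can be compared. They lie at chr2:64989366-64989425 (plus strand, SLC1A4), chr13:29595648-29595707 (minus, SLC7A1), chr19:46784878-46784937 (minus, SLC1A5), chr12:46266487-46266546 (minus, SLC38A1) and chr5:36596342-36596401 (plus, SLC1A3).
SLC1A4: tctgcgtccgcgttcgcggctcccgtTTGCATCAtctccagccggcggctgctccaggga
SLC7A1: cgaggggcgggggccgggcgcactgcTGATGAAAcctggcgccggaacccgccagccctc
SLC1A5: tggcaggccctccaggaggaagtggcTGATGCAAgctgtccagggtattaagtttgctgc
SLC38A1: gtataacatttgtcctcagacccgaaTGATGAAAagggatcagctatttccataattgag
SLC1A3: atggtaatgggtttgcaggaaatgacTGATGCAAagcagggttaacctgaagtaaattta

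In SLC1A4 the match is on the opposite strand and begins 7 bases before an annotated start. In SLC7A1 it begins 7 bases after the start. The SLC1A5 match begins 97 bases before, and the SLC38A1 match 4 bases before, a start that lies inside the annotated gene. In SLC1A3, which was lower in the exposed library, it begins 220 bases before the start of a transcript upstream of the gene as deposited. SLC3A2 is shown with its whole window, chr11:62881449-62881748 on the plus strand, as its log2 ratio was the highest among the 6 genes that held the core. It also held the second core searched, that of the antioxidant response element, as did the window of SLC7A1.
SLC3A2: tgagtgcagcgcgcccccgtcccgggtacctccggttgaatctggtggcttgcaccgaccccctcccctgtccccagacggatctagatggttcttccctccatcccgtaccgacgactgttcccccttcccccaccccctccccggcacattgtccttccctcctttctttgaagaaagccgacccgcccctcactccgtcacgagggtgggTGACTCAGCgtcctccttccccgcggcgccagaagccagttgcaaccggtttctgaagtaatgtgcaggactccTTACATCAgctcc

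The capitals near the end of the SLC3A2 window, TTACATCA, are the C/EBP-ATF core on the opposite strand, beginning 37 bases after the start. Those further upstream, TGACTCAGC, match the core of the antioxidant response element, TGACNNNGC, the site known for the oxidative stress factor NRF2, and contain the AP-1 site within the same letters. The antioxidant core was also in a window of SLC7A5, SLC7A1, SLC1A5, SLC7A6 and SLC1A3. With SLC3A2 these are 6 of 23 genes (26.1%) against 19.4% of measured genes with a window, for the whole set a share close to the background. Of the 8 transporter genes at least 1.5-fold higher with a window 4 held it, and of the other 15 measured ones 2 did. Among all measured genes at least 1.5-fold higher it was 46 of 200 (23.0%). No test was made on these small counts.

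SLC3A2 encodes the heavy chain of CD98 (4F2hc), the partner that carries several SLC7 light chains to the cell surface (ENSG00000168003, chromosome 11, 62856102 to 62888875 on GRCh38). Control cells gave 48.4 FPKM (4011 reads) and exposed cells 149.5 FPKM (12209 reads). The log2 ratio was 1.61, and the interval of the ratio, 2.98 to 3.20, lay well above 1. SLC3A1, the heavy chain of the renal cystine carrier, had no read in either library.

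The light chains that pair with SLC3A2 differed in both directions. SLC7A5 (LAT1), the exchanger of large neutral amino acids such as leucine (ENSG00000103257, chromosome 16, 87830023 to 87869488), had 98.8 FPKM in the control library against 151.1 when exposed, or 1.53 times the control (1.49 to 1.58). It was the most abundant transporter gene in both libraries. Its reads could be shared with pseudogene copies elsewhere in the genome. Adding the reads of the annotated SLC7A5 pseudogenes took the counts from 7500 and 11309 to 7514 and 11327, with a ratio of 1.53 (1.49 to 1.57). So few added reads could hardly move the ratio, and reads assigned to the wrong copy were not examined.

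SLC7A11 (xCT), which exports glutamate and imports cystine for glutathione synthesis (ENSG00000151012, chromosome 4, 138164097 to 138242349), stood at 5.38 and 20.7 FPKM. It had the highest log2 ratio of all 59 genes, 1.77, and its level lay at percentile 37.2 of measured genes in the control and 82.1 in the exposed library. The other light chains were lower or hardly measured. SLC7A8 (LAT2), another exchanger of neutral amino acids, gave 4.34 FPKM without exposure and 3.22 with it, an exposed-to-control ratio of 0.741 (0.637 to 0.862). SLC7A6 (y+LAT2), which exchanges arginine for glutamine, was read at 3.38 FPKM in control and 2.82 in exposed cells, 0.834 times the control (0.720 to 0.965). SLC7A6OS, which overlaps SLC7A6 on the opposite strand, had 127 and 112 reads against its 410 and 337, so this value is uncertain. SLC7A7 (y+LAT1) had 28 and 33 reads, and SLC7A10 (Asc-1) had none.

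The summed FPKM of these 6 light chains was 112 in the control and 178 in the exposed library. Heavy chain RNA per unit of light chain RNA was therefore 0.431 in the control and 0.838 in the exposed library, 1.94-fold apart on a scale corrected for gene length. Within the light chain sum, the share of SLC7A5 was 88.0% and 84.8%, and that of SLC7A11 was 4.79% and 11.6%. The shares of SLC7A8 were 3.87% and 1.80%, and those of SLC7A6 3.01% and 1.58%, of a sum that was itself larger in the exposed library.

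**Figure D2:**
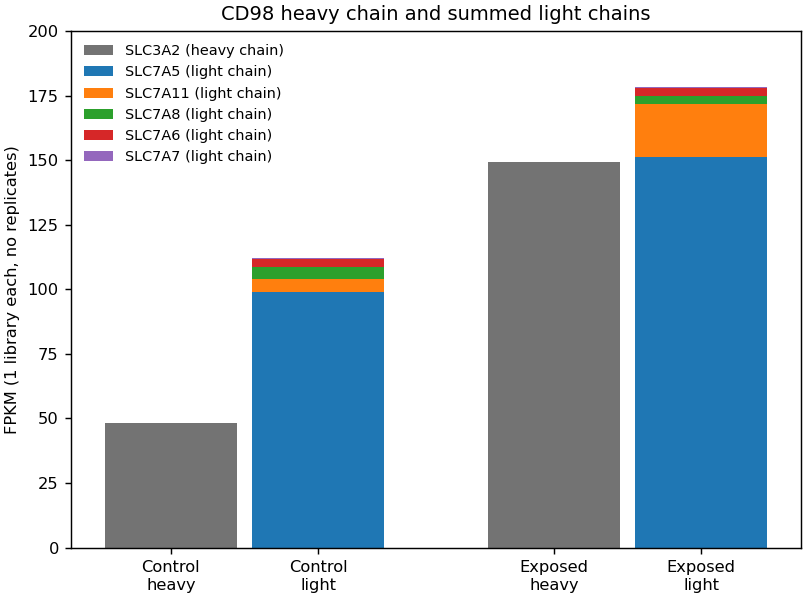
FPKM (vertical axis, from 0) of the heavy chain gene SLC3A2 beside the stacked FPKM of its light chain genes, for the control and the exposed library, 1 library each. The heavy chain bar is 48.4 in the control and 149.5 in the exposed library, and the light chain stack is 112 and 178, most of it SLC7A5 in both.

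SLC7A1 (CAT1), the main carrier of arginine and lysine in many cell types (ENSG00000139514, chromosome 13, 29509410 to 29595688), works without a heavy chain. It had 32.9 FPKM in the control library against 52.5 when exposed, or 1.59 times the control (1.53 to 1.66). Its paralogue SLC7A2 (CAT2), which carries the same substrates, stood at 18.5 and 17.4 FPKM, a log2 ratio of -0.09 that took the opposite sign when FPKM were scaled to equal sums. Thus 2 genes for the same substrates had ratios of 1.59 and 0.937 (0.883 to 0.994), with intervals that do not overlap. SLC7A3, SLC7A13 and SLC7A14 had no read, SLC7A4 had 0 and 1, and SLC7A9, the light chain of the renal cystine carrier, had 0 and 3.

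The SLC1A family holds carriers of neutral amino acids and carriers of glutamate, and these went opposite ways. SLC1A4 (ASCT1), a carrier of alanine, serine and cysteine (ENSG00000115902, chromosome 2, 64988477 to 65023865), gave 7.17 FPKM without exposure and 17.6 with it, an exposed-to-control ratio of 2.45 (2.25 to 2.66). SLC1A5 (ASCT2), a glutamine carrier (ENSG00000105281, chromosome 19, 46774883 to 46788594), was read at 85.4 FPKM in control and 133.7 in exposed cells, 1.56 times the control (1.51 to 1.62).

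The glutamate carriers were lower. SLC1A1 (EAAT3), known as a neuronal carrier of glutamate and cysteine, had 4.47 FPKM in the control library against 2.92 when exposed, or 0.653 times the control (0.539 to 0.788). SLC1A3 (EAAT1), best known from astrocytes, gave 7.80 FPKM without exposure and 5.43 with it, an exposed-to-control ratio of 0.695 (0.622 to 0.777). Their log2 ratios were -0.48 and -0.45, short of 1.5-fold, although SLC1A1 passed 1.5-fold when no pseudocount was added. The summed FPKM of SLC1A4 and SLC1A5 was 92.6 and 151.3, and that of SLC1A1 and SLC1A3 was 12.3 and 8.34. The neutral carriers thus stood at 7.54 times the glutamate carriers in the control and 18.1 times in the exposed library. SLC1A2 (EAAT2) had 20 and 13 reads, SLC1A7 had 18 and 3 reads, a ratio of 0.169 (0.0319 to 0.579), and SLC1A6 had none.

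The SLC38A family holds sodium-coupled carriers of glutamine and other neutral amino acids at the surface, and members of the lysosome. SLC38A1 (SNAT1) (ENSG00000111371, chromosome 12, 46183063 to 46270017) was read at 43.6 FPKM in control and 66.9 in exposed cells, 1.53 times the control (1.49 to 1.58). Its log2 ratio of 0.61 lay just above 1.5-fold and below it at a pseudocount of 5. SLC38A2 (SNAT2), a neighbour at 46358189 to 46372867 and a carrier well known to be induced by amino acid shortage, had 83.2 FPKM in the control library against 103 when exposed, or 1.24 times the control (1.203 to 1.27). SLC38A4, the next member of the same cluster at 46764761 to 46832408, had 42 and 48 reads, and the interval of its ratio of 1.16, 0.750 to 1.80, held the ratios of both neighbours. The 3 genes lie on the minus strand.

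The lysosomal members stood slightly above the median of all genes. SLC38A9, the lysosomal arginine sensor that signals to mTORC1, gave 3.94 FPKM without exposure and 4.61 with it, an exposed-to-control ratio of 1.17 (1.04 to 1.31). SLC38A7, which releases glutamine and asparagine from lysosomes, was read at 3.69 FPKM in control and 4.51 in exposed cells, 1.22 times the control (1.07 to 1.39). Among the others, SLC38A6 stood at 1.24 and 1.45 FPKM with an interval that held 1, and the opposite-strand gene TRMT5, which overlaps it, had 493 and 387 reads against its 102 and 118, so its value is uncertain. SLC38A10 stood at 17.0 and 16.9 FPKM, with a log2 ratio of -0.01 whose sign changed with the scaling. SLC38A3 (SNAT3), a glutamine carrier of liver and astrocytes, missed the minimum at 1.02 and 0.815 FPKM, SLC38A5 had 2 and 7 reads, and SLC38A8 and SLC38A11 had none.

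The measured SLC36A carriers were not higher. SLC36A1 (PAT1), found on lysosomes, stood at 6.22 and 5.62 FPKM with an interval of the ratio that held 1 (0.811 to 1.01). SLC36A4 (PAT4), a carrier of proline and tryptophan, had 10.7 FPKM in the control library against 8.35 when exposed, or 0.782 times the control (0.726 to 0.841). SLC36A2 and SLC36A3 had no read.

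Of the SLC43A carriers, which let branched-chain amino acids pass without sodium, SLC43A1 (LAT3) differed and SLC43A2 (LAT4) did not beyond counting error. SLC43A1 (ENSG00000149150, chromosome 11, 57484534 to 57515786) gave 4.62 FPKM without exposure and 15.3 with it, an exposed-to-control ratio of 3.32 (2.89 to 3.83). SLC43A2 was read at 1.22 FPKM in control and 1.21 in exposed cells, 0.995 times the control (0.816 to 1.21). SLC43A3, a carrier of purine bases, had no read.

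**Figure D3:**
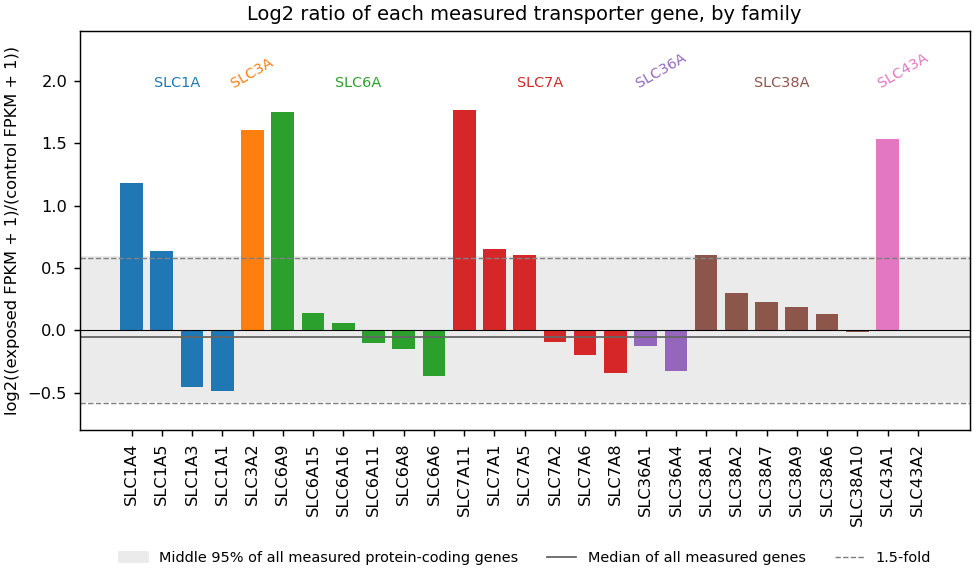
Log2 ratio (vertical axis) of each of the 27 measured transporter genes, grouped and coloured by family, with the median of all measured genes (solid line), their middle 95% from -0.56 to 0.59 (grey band) and 1.5-fold (dashed lines). In SLC1A, SLC6A, SLC7A and SLC43A a few tall bars stand beside bars near or below 0, while no SLC36A bar is above 0. The signs of SLC38A10, SLC43A2, SLC6A11 and SLC7A2 depended on the scaling.

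Of the 19 SLC6A genes, which carry neurotransmitters, amino acids, taurine and creatine with sodium and chloride, 6 were measured and 1 was at least 1.5-fold higher. SLC6A9 (GlyT1), the glycine carrier (ENSG00000196517, chromosome 1, 43991500 to 44031467), gave 158 reads in the control, or 1.91 FPKM, and 719 in the exposed library, or 8.84 FPKM. Its ratio of 4.62 (3.88 to 5.52) was the largest among the 27, and its log2 ratio was 1.76. CCDC24, which overlaps it on the opposite strand, had 140 and 114 reads, so its own reads went the other way.

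The other 5 measured SLC6A genes were within 1.5-fold. SLC6A6, the taurine carrier, had 5.03 FPKM in the control library against 3.69 when exposed, or 0.733 times the control (0.651 to 0.826). SLC6A8, the creatine carrier, gave 23.0 FPKM without exposure and 20.7 with it, an exposed-to-control ratio of 0.897 (0.841 to 0.956). SLC6A15, a neuronal carrier of proline and branched-chain amino acids, was read at 10.9 FPKM in control and 12.1 in exposed cells, 1.11 times the control (1.03 to 1.19). SLC6A11 (GAT3), a GABA carrier, stood at 4.06 and 3.73 FPKM, and the orphan SLC6A16 at 1.08 and 1.16 FPKM, both with intervals that held 1. The log2 ratio of SLC6A11, -0.10, was above 0 when FPKM were scaled to equal sums.

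The 13 unmeasured SLC6A genes bear on the identity of the cells. SLC6A2, the noradrenaline carrier and a marker of noradrenergic neuroblastoma, had 0 reads in both libraries, where 3 reads, the number a count of 0 allows, would be 0.0343 and 0.0348 FPKM. SLC6A3, the dopamine carrier, had 1 and 0 reads, and SLC6A4, the serotonin carrier, had 6 and 8. Of 14 noradrenergic neuroblastoma markers, SLC6A2 among them, 3 reached a mean of 1 FPKM and 4 had no read, and their summed FPKM was 10.2 and 7.27. The 3 were GATA3 at 5.82 and 4.69 FPKM, ISL1 at 2.15 and 1.25 FPKM and HAND2 at 1.13 and 0.916 FPKM. TH and PHOX2A, also markers of the lineage, had 0 reads in both libraries. Of 8 neuronal genes UCHL1, NEFL and GAP43 were measured, and the list's sum of 277 and 294 FPKM was mostly UCHL1 and NEFL. TUBB3 had 6 and 7 reads and NEFM 16 and 1, and STMN2, ELAVL4 and INA had no read. Of 5 epithelial genes the keratins KRT8, KRT18 and KRT19 were measured, and the list summed to 619 and 411 FPKM, but EPCAM had 3 and 5 reads and CDH1 4 and 10. Of 6 kidney progenitor genes 4 were measured, with a sum of 17.2 and 12.1 FPKM, and of 4 mesenchymal genes 3, with a sum of 64.7 and 53.0 FPKM. The part of these marker levels in the transporter differences was not tested. Most of the 14 noradrenergic markers were thus absent or low, while GATA3, ISL1 and HAND2 were measured. The cells are called here by their label only.

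SLC6A17 had 14 and 31 reads, a ratio of 2.25 (1.16 to 4.57). SLC6A12, SLC6A13 and SLC6A19 had from 0 to 17 reads in a library. SLC6A5, SLC6A7, SLC6A14, SLC6A18 and SLC6A20 had none. In all, 17 of the 59 genes had no read in either library, with limits from 0.0179 to 0.105 FPKM, and 15 had some reads but stayed under the minimum, with at most 65 reads in a library.

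**Figure D4:**
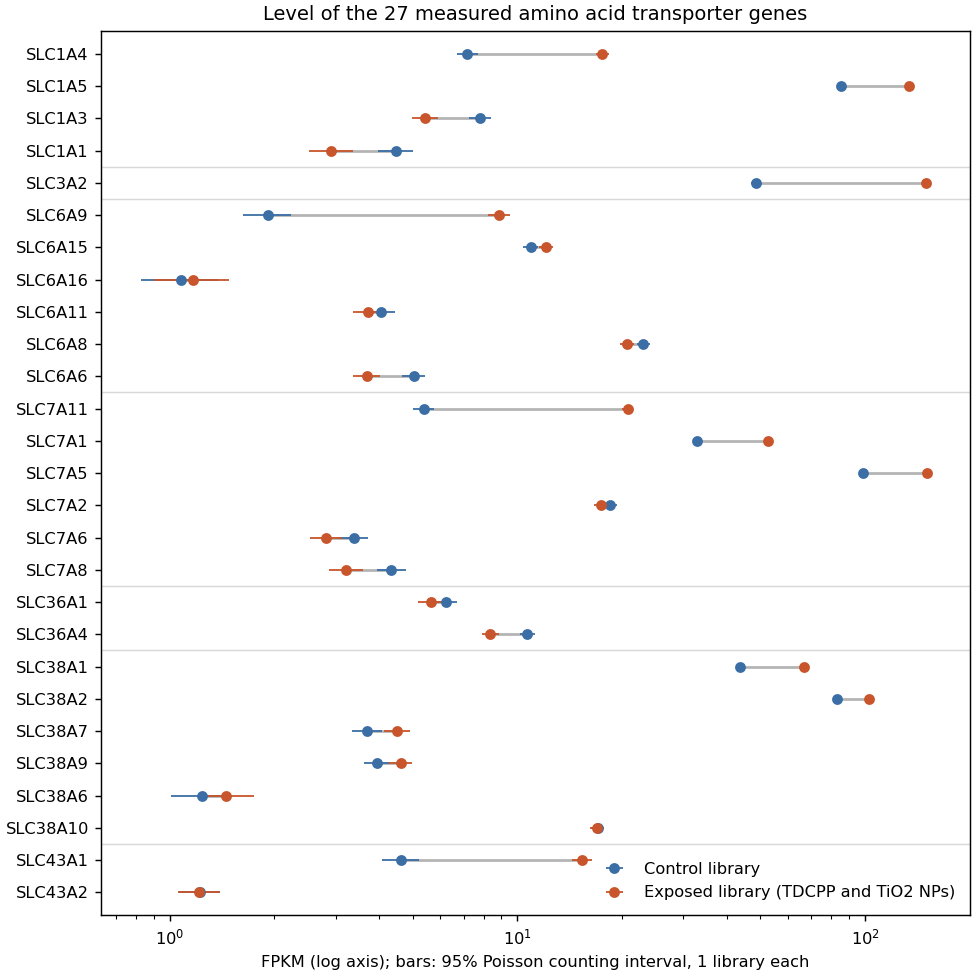
FPKM (horizontal, log axis) of each measured transporter gene in the control (blue) and the exposed library (orange), 1 library each, with Poisson 95% counting intervals as bars and families separated by lines. SLC7A5 is the rightmost point in both libraries, and SLC6A9, SLC7A11, SLC43A1 and SLC3A2 have the longest connecting lines.

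Ordered by level, 6 genes made up most of the transporter RNA in both libraries, SLC7A5, SLC1A5, SLC38A2, SLC3A2, SLC38A1 and SLC7A1. They held 72.5% of the summed FPKM of the families in the control and 78.4% in the exposed library, and 5 of the 6 were at least 1.5-fold higher, SLC38A2 being the other. In the control SLC1A5 and SLC38A2 did not differ beyond their counting intervals. In the exposed library SLC3A2 was in place 2, against place 4 in the control, and its 149.5 FPKM (146.9 to 152.2) did not differ beyond counting error from the 151.1 FPKM (148.4 to 153.9) of SLC7A5. SLC7A11 was in place 15 in the control and 7 in the exposed library, SLC6A9 in 24 and 14 and SLC43A1 in 17 and 12. Along the order of 27 genes, 14 of the 26 neighbouring pairs in the control and 15 in the exposed library had overlapping intervals. These intervals take the gene length behind each FPKM as given, so the order between genes also rests on those lengths.

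Together the 59 genes took 52847 reads in the control, 0.321% of all reads (Wilson 95% interval 0.318% to 0.324%), and 78422 reads in the exposed library, 0.512% (0.508% to 0.516%). The summed FPKM by family was 164 and 248 for SLC7A, 154 and 199 for SLC38A, 105 and 160 for SLC1A, 48.4 and 149.5 for SLC3A, 46.6 and 50.9 for SLC6A, 16.9 and 14.0 for SLC36A and 5.84 and 16.5 for SLC43A.

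Other genes of amino acid handling were counted by the same size rule, which 2.53% of all measured genes passed upwards and 2.16% downwards. None of the 16 measured carriers of amino acids and peptides outside the 7 families, among them mitochondrial and lysosomal ones, was 1.5-fold apart in either direction, and their median log2 ratio was -0.11. The largest difference was that of SLC16A10 (TAT1), a carrier of aromatic amino acids, at 3.93 and 2.57 FPKM, a ratio of 0.654 (0.580 to 0.737). The lysosomal carrier of cationic amino acids, PQLC2, stood at 11.4 and 14.3 FPKM. Of 20 measured partners and regulators of these carriers 1 was at least 1.5-fold higher, LRRC8D, a subunit of the volume-regulated anion channel, at 8.81 and 15.7 FPKM, a ratio of 1.79 (1.63 to 1.97). Without the added 1, RRAGD at 5.26 and 8.11 FPKM, a ratio of 1.54 (1.36 to 1.75), also passed 1.5-fold upwards. SGK1 at 1.59 and 0.939 FPKM, a ratio of 0.591 (0.479 to 0.727), then passed it downwards. The median of that list was -0.05, and LAPTM4B, which brings the SLC7A5 and SLC3A2 pair to lysosomes, stood at 111 and 107 FPKM.

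In contrast to those lists, 22 of 26 listed transcription factors and targets of the amino acid response outside the carriers were at least 1.5-fold higher. Among all measured genes the share was 2.53%. None of the list was 1.5-fold lower, and its median was 0.96. Of the 22 genes 11 passed 2-fold, against 0.657% of all measured genes. ASNS, at 0.688 and 2.32 FPKM, and CBS, at 0.129 and 2.28 FPKM, reached a mean of 1 FPKM only through the exposed library. Over the 24 genes with at least 1 FPKM in both libraries, 20 passed 1.5-fold and 10 passed 2-fold upwards, with a median of 0.93. Of the list, TRIB3, a pseudokinase induced downstream of ATF4, had the largest log2 ratio, 3.80. This list shares its library pair with the transporters and is known to be higher from earlier work on the same libraries. The members that did not reach 1.5-fold were VLDLR at 0.25, NARS at 0.14, EPRS at 0.00 and ALDH18A1, an enzyme of proline synthesis, at -0.49. Whether the transporter differences depend on these factors was not tested.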

How the data were processed

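The authors deposited FPKM values, 1 per library, for 58735 genes; how reads were aligned and counted is not given in the sources used here. Mouse builds (GRCm38, mm10) appear in the submitters' processing notes, but all 58735 identifiers are human, and symbols, starts and ends equal those of GENCODE 29 (GRCh38). Multiplied by gene length, 100% of the deposited FPKM above 0 were whole multiples of a step per library, within 0.001 reads, which gave the reads. The authors' library totals were 0.971 and 1.03 times the summed reads, a scaling kept here. Strand is not stated, so overlapping genes cannot be separated. An overlapping gene had at least 5% of the reads of 6 measured members, SLC38A6, SLC7A6, SLC6A9, SLC1A1, SLC1A5 and SLC1A3.

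Genes with a mean of at least 1 FPKM were kept. Log2 ratios (pseudocount 1), exact binomial (Clopper-Pearson) and Poisson intervals were computed with Python 3.11.15 and scipy 1.17.1; without molecular identifiers, intervals and limits cover counting error only. With 1 library per group there is no count test and no p-value. Calls are by size, 1.5-fold and 2-fold. Every measured member is named; of the other lists, the largest differences, and single further genes chosen after their values were seen. Members and lists were chosen with earlier results of these data known. Alternatives were pseudocounts of 0.1 and 5, 2 filters, 4 scalings and the plain ratio. A few values are not reported here.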

Additional observations from a re-analysis of the deposited data

How the results depend on the processing

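Under 9 alternative settings the count of transporter genes at least 1.5-fold higher was 9 in 8 settings. It was 8 at a pseudocount of 5, where SLC38A1 dropped out. Pseudocounts, filters and the plain ratio cannot change the sign of a log2 ratio, and the 4 scalings raised the log2 ratios of all 9 genes. The count at least 2-fold higher was 5, or 4 at a pseudocount of 5. With a pseudocount of 0.1 and with the plain ratio 1 gene, SLC1A1, was at least 1.5-fold lower. Scaling to equal FPKM sums moved the median of all genes by 0.11. At a mean FPKM of at least 5 the median of the measured transporter genes was 0.61, that of SLC1A 0.64, of SLC7A 0.63 and of SLC43A 1.54, as fewer genes remained. Without a filter the SLC1A median was -0.12 and the SLC7A median 0.070. SLC3A, a single measured gene, stood at 1.53 with a pseudocount of 5, at 1.73 with equal sums, at 1.66 with the trimmed mean or the median of all genes set to 0 and at 1.67 with equal 75th percentiles. The SLC7A median was 0.38 with equal sums and 0.33 with equal 75th percentiles. The signs of 4 small log2 ratios, those of SLC38A10, SLC43A2, SLC6A11 and SLC7A2, were opposite in at least 1 scaling. Depth limits genes under 1 FPKM, whose intervals were wide. No paired analysis was possible because each group has 1 library.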

Other observations

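Outside the 7 families, the 2 SLC genes past 1.5-fold, named after their values were seen, were SLC22A15 and SLC2A6. SLC22A15, a carrier of zwitterions and organic cations, had 2.35 FPKM in the control and 6.41 in the exposed library, 2.73 times as much (2.31 to 3.23). SLC2A6 (GLUT6), a hexose carrier, had 11.4 and 6.57 FPKM, 0.578 times the control (0.507 to 0.658).

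SLC7A11-AS1, annotated on the strand opposite to SLC7A11 and overlapping it, had 7 and 36 reads, a ratio of 5.22 (2.29 to 13.9). With these reads added, the ratio of SLC7A11 was 3.87 (3.58 to 4.18). Whether the antisense reads come from that gene or from SLC7A11 was not tested.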
